A study of Mus musculus with 17 samples.

Results

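The tubules that border tumours in the testes of mice lacking *Inha* (tumour associated tubules, TAT) were compared with seminiferous tubules of *Inha* WT mice across all genes. *Inha* encodes the inhibin α subunit, and the mice were C57/Bl6 adults, given as postnatal day 48 to 52 in the age label and as 53 to 55 in the protocol. The comparison used 7 of the 17 libraries of the series: 3 WT libraries from animals 79783, 79811 and 79852, and 4 TAT libraries from the *Inha* KO animals 79781, 79813 and 79853. Animal 79813 gave a TAT piece from each testis, and their counts were summed, so that each side had 3 animals. The *Inha* KO animals also gave 'normal' tubules distant from tumours (N) and tumour pieces (TM), from the same testes. No treatment is given for any animal, the knockout line was kept by crossing heterozygotes and is not described as restricted to a cell type, and all libraries came from bulk tissue. TAT were recognised by their strong vascularisation, and as the study describes them the pieces held interstitial areas along with tubules. Of 23362 genes in the table, 19791 passed a filter on low counts and were tested.

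Inhibin is a dimer of the α subunit with a β subunit and opposes activin, which is a dimer of β subunits. Activin acts through receptor kinases and SMAD proteins, and follistatin binds and blocks it. In the seminiferous tubule, Sertoli cells carry germ cells from spermatogonia at the basement membrane through meiosis to round and elongating spermatids, with peritubular myoid cells around the tubule and androgen-making Leydig cells and vessels between tubules. In bulk tissue, fewer cells of a type and less RNA per cell cannot be told apart, which applies to every result here.

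Raw totals were between 6349355 and 35454195 counts in the WT libraries and between 17413661 and 25065612 counts in the TAT libraries. Levels are given as CPM, the counts scaled to a common library total, after TMM scaling, always in the order 79783, 79811 and 79852 for WT and 79781, 79813 and 79853 for TAT. *Inha* (ENSMUSG00000032968, chromosome 1, 75507077 to 75510366 in GRCm38, GENCODE vM21) measured 62.9, 70.6 and 64.3 CPM in the WT animals and 1.57, 1.74 and 1.41 CPM in TAT (log2 fold change -5.38, SE 0.41, adjusted p = 0.000124), so each TAT level was far below each WT level. The labels and methods do not say which part of the gene is deleted, so the remaining reads were not placed. Of the markers of tubule cells, *Ddx4* and *Sycp3* (germ cells), *Prm1* and *Tnp1* (spermatids) and *Sox9* and *Wt1* (Sertoli cells) were present in every library of both groups. Among markers of other cell types, the T cell gene *Cd3e* and the B cell gene *Cd79a* reached at most 1.01 and 1.06 CPM in any WT or TAT animal, and the duct keratin *Krt19* did not pass the filter. Another T cell gene, *Cd3d*, was at 30.6 to 40.2 CPM in WT, where *Cd3e* reached at most 0.0477 CPM. Which cells the *Cd3d* reads came from was not tested. Over the WT and TAT animals the globin genes *Hbb-bs* and *Hba-a1* were at 168 to 1497 and 33.6 to 356 CPM, and *Epcam*, an epithelial gene that spermatogonia also express, at 40.3 to 84.6 CPM. Mitochondrially encoded transcripts took 1.52 to 1.85% of the counts in WT and 3.22 to 3.57% in TAT. No pair of libraries agreed within sampling noise.

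Compared to WT, 2850 genes were higher in TAT (14.4% of the genes tested) and 912 were lower (4.61%), at an adjusted p under 0.05 by the edgeR quasi-likelihood test and a fold change above 1.5. Each count of called list members below is to be read against these 2 shares. The genes that rose did so by a median of 1.77 on the log2 scale, with 1173 above 2 and 264 above 4. The genes that fell had a median of -1.38, with 143 below -2 and 22 below -4. Over all tested genes the median log2 fold change was 0.07. The 3 TAT animals lay above all 3 WT animals in 5148 genes (26%) and below them in 4290 (21.7%). Scaling moved the split of calls. Higher genes were 75.8% of the calls with TMM, 58.4% with RLE size factors, which shifted the median of all genes to -0.06, and 87.9% with total library size, which shifted it to 0.35.

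**Figure D1:**
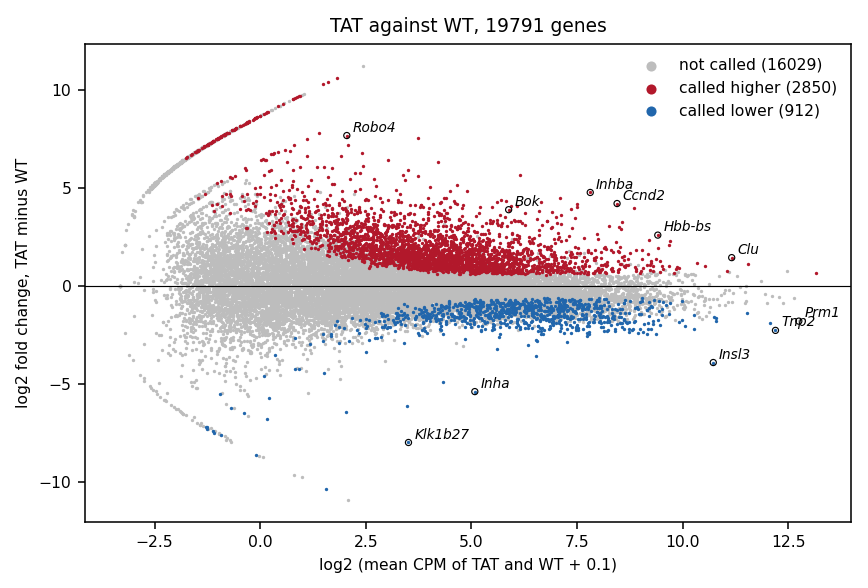
Each point is 1 of the 19791 tested genes, with the log2 of its mean CPM plus 0.1 over the 6 animals on the horizontal axis and its log2 fold change in TAT compared to WT on the vertical axis. Red marks the 2850 genes higher in TAT, blue the 912 lower and grey the 16029 not called.

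The 3 TAT animals did not stand equally far from WT. Among the 2850 higher genes, KO 79853 had the highest TAT level in 1979 (69.4%) and KO 79813 the lowest in 2503 (87.8%). The order was mirrored among the 912 lower genes, where KO 79853 was lowest in 760 (83.3%) and KO 79813 highest in 761 (83.4%). The number of calls followed the animals in the fit: 720 genes were higher and 58 lower without KO 79781, 3073 and 2210 without KO 79813, and 1772 and 554 without KO 79853. Leaving out a WT animal gave 1757 higher genes without WT 79852, while the lower genes numbered 415, 485 and 405 without WT 79783, 79811 and 79852. All 17 libraries in limma-voom gave 2222 lower genes, limma-voom that treats animals as random blocks (blocked limma-voom) gave 2436, and a fit of WT and TAT alone gave 2645.

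**Figure D2:**
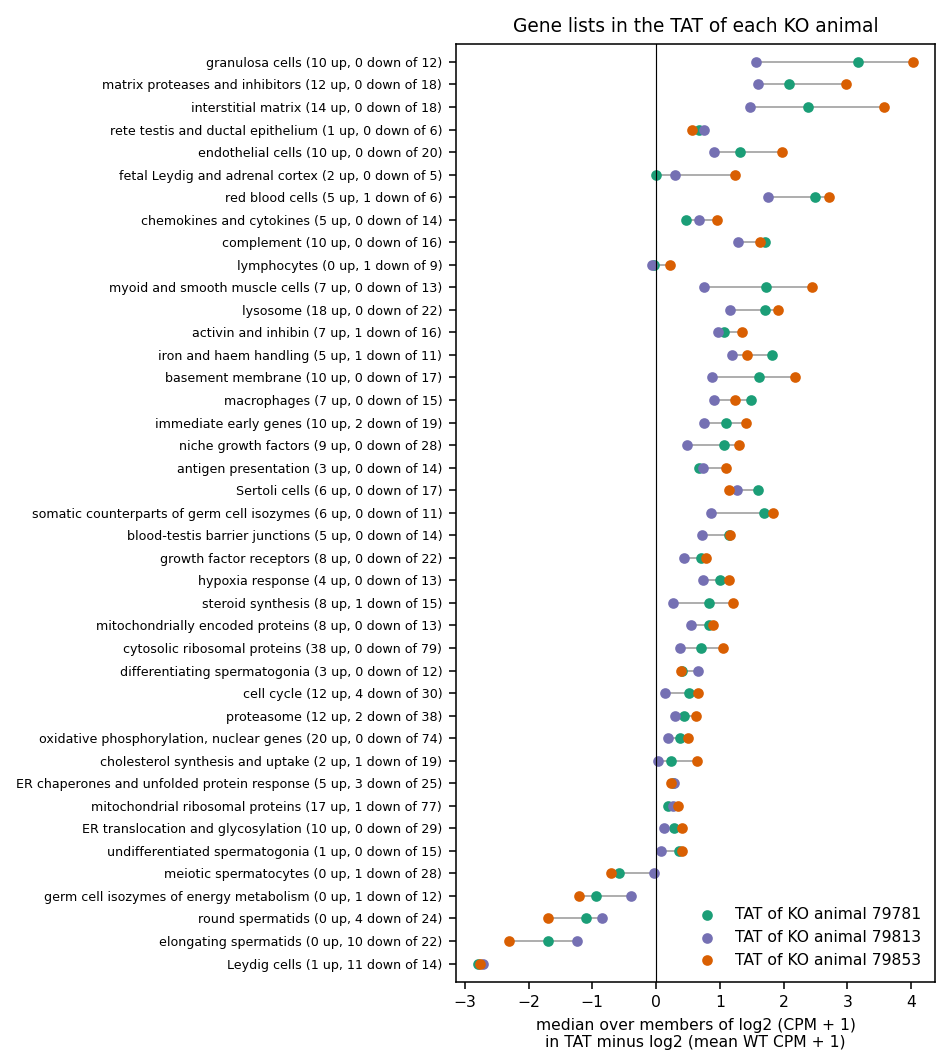
For 41 gene lists, each point is 1 TAT animal and gives the median over the list's members of the log2 of CPM plus 1 minus the log2 of the WT mean plus 1. Spermatid and Leydig cell lists lie to the left of 0 and granulosa cell, matrix and vessel lists to the right, with KO 79813 usually nearest to 0.

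The genes with the largest rises included secreted factors of stroma and signalling. Of the 12 largest rises among genes with a mean of at least 10 CPM, *Bmp3*, which encodes a bone morphogenetic protein family member, measured 0, 0.198 and 0.0954 CPM in the WT animals and 30.5, 4.57 and 44.6 CPM in TAT (log2 fold change 7.57, SE 0.91, adjusted p = 0.000876). *Cxcl14*, a chemokine gene, measured 3.01, 2.28 and 3.05 CPM in the WT animals and 87.5, 53 and 277 CPM in TAT (log2 fold change 5.66, SE 0.65, adjusted p = 0.000808). *Nppc*, which encodes C-type natriuretic peptide, measured 0, 0.529 and 0.382 CPM in the WT animals and 15.7, 2.86 and 42 CPM in TAT (log2 fold change 5.68, SE 0.95, adjusted p = 0.00257). TAT and WT did not overlap in these genes, and KO 79853 was the highest animal in all 3. The others were *Wfdc18*, *Ahsg*, *Lpcat2*, *Dkk3*, *Sfrp4*, *Fst*, *Tnfrsf12a*, *Grem1* and *Inhba*, with log2 fold changes from 4.78 to 6.34. *Tnfrsf12a*, the receptor gene for the cytokine TWEAK, measured 1.77, 2.74 and 1.24 CPM in the WT animals and 74.4, 40.1 and 57.8 CPM in TAT (log2 fold change 4.87, SE 0.40, adjusted p = 0.00015). *Grem1*, which encodes the bone morphogenetic protein antagonist gremlin, measured 2.12, 0.661 and 2 CPM in the WT animals and 42.5, 7.75 and 79.8 CPM in TAT (log2 fold change 4.85, SE 0.81, adjusted p = 0.00251). KO 79813 was the lowest TAT animal for both, yet stood above every WT animal. The call was lost for *Wfdc18* without KO 79781 (adjusted p = 0.0789). The call also failed for *Nppc*, *Grem1* and *Wfdc18* with limma-voom or blocked limma-voom (adjusted p 0.0666 to 0.102).

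The smallest p-values belonged to a cyclin and a cell death gene as well as *Inha*. *Ccnd2*, which encodes cyclin D2, measured 38.2, 32.4 and 36.3 CPM in the WT animals and 809, 344 and 836 CPM in TAT (log2 fold change 4.22, SE 0.32, adjusted p = 0.000124). *Bok*, a BCL2 family gene, measured 6.89, 8.96 and 6.16 CPM in the WT animals and 117, 65 and 149.6 CPM in TAT (log2 fold change 3.90, SE 0.31, adjusted p = 0.000124). *Pmepa1*, a gene induced by TGF-β, measured 3.71, 5.26 and 3.58 CPM in the WT animals and 40.7, 23.5 and 43.8 CPM in TAT (log2 fold change 3.09, SE 0.29, adjusted p = 0.000432). WT animals were close together and every TAT animal was several-fold above them in these genes. *Fundc2*, *S100a10* and *Fam19a5* were also among the 12 smallest p-values, with log2 fold changes of 2.84, 2.69 and 4.42. In the N tubules of the same KO animals, which share the WT controls when set against WT, *Ccnd2* measured 191, 189 and 185 CPM and *Bok* 33.9, 32.3 and 33.8 CPM.

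**Figure D3:**
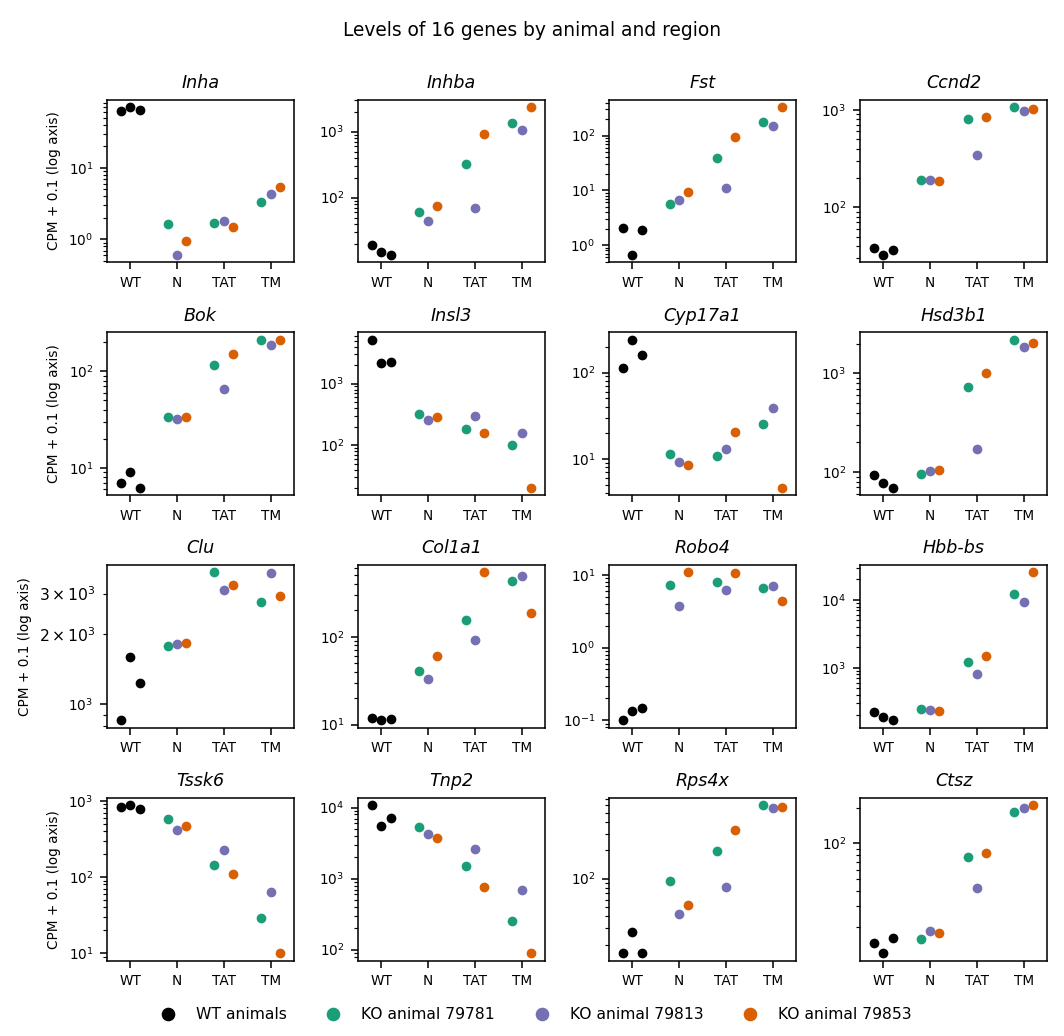
CPM plus 0.1 of 16 genes on a log axis in each animal of WT, N, TAT and TM, 1 point per animal after summing its pieces. The WT and TAT points do not overlap in any panel, with TAT below WT for *Inha*, *Insl3*, *Cyp17a1*, *Tssk6* and *Tnp2* and above it for the other 11 genes.

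Spermatid genes were called lower and none was called higher. Of 22 elongating spermatid genes, 10 were lower and none higher (median log2 fold change -1.69), and of 24 round spermatid genes 4 were lower and none higher (median -1.16). Among 28 meiotic genes 1 was lower (median -0.39). The shares of lower calls stood against 4.61% of all genes. *Tnp2*, which encodes a transition protein that replaces histones in spermatids, measured 10805, 5460.0 and 7070.0 CPM in the WT animals and 1529, 2599.6 and 756 CPM in TAT (log2 fold change -2.26, SE 0.63, adjusted p = 0.0271). *Tssk6*, a kinase gene needed for sperm head shaping, measured 840.2, 874 and 769 CPM in the WT animals and 144, 226 and 111 CPM in TAT (log2 fold change -2.37, SE 0.51, adjusted p = 0.00796). *Fscn3*, the testis fascin gene, measured 154, 185 and 221 CPM in the WT animals and 40.5, 58.8 and 23 CPM in TAT (log2 fold change -2.19, SE 0.50, adjusted p = 0.0106). Each WT animal stood above each TAT animal, and KO 79853 was lowest in these 3 genes. *Spem1* and *Gsg1*, both spermatid genes, fell by 2.05 and 1.93 on the log2 scale. The protamine gene *Prm1*, with 6447, 13331 and 12295 CPM in WT but 3168, 4475 and 1675 CPM in TAT, did not pass the test (log2 fold change -1.78, adjusted p = 0.0616), although the groups did not overlap.

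All 22 elongating and 22 of 24 round spermatid genes had every TAT animal below every WT animal, compared with 21.7% of all genes. The summed level of the elongating list was 36772, 45856 and 42100.4 CPM in WT compared to 12179.5, 16476 and 7076 CPM in TAT. Counts of calls depended on the animals. For elongating spermatids the 10 calls became 0 without KO 79781, 3 without WT 79783, 3 without WT 79811, 22 without KO 79813 and 2 without WT 79852. For round spermatids the 4 calls became 0 without KO 79781, 1 without WT 79783, 1 without WT 79811, 16 without KO 79813 and 1 without WT 79852. The single meiotic call, *Syce2* (a synaptonemal complex gene, log2 fold change -1.01), did not hold in 5 of the 6 fits with an animal left out, and 5 meiotic genes were lower without KO 79813. Limma-voom on 17 libraries called 18 of the 22 elongating genes. For elongating spermatids in other settings, the number of lower genes was from 17 with RLE size factors or testis 1 of KO 79813 alone to 22 with a fit of WT and TAT alone (21 with blocked limma-voom). For round spermatids in other settings, the number of lower genes was from 8 with RLE size factors or testis 1 of KO 79813 alone to 22 with a fit of WT and TAT alone (18 with blocked limma-voom). For meiotic genes in other settings, the number of lower genes was from 3 with limma-voom or DESeq2 to 9 with a fit of WT and TAT alone (4 with blocked limma-voom). No call was made for *Tssk6*, *Fscn3* and *Gsg1* without KO 79781 (adjusted p 0.0809 to 0.102), *Tnp2* without KO 79781, WT 79783 or WT 79852 (adjusted p 0.0581 to 0.17), *Spem1* without KO 79781, WT 79783, WT 79811 or WT 79852 (adjusted p 0.0595 to 0.157), and *Syce2* without KO 79781, WT 79783, WT 79811, WT 79852 or KO 79853 (adjusted p 0.0684 to 0.141). In other settings the call was lost for *Syce2* with total library size (adjusted p = 0.0722).

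**Figure D4:**
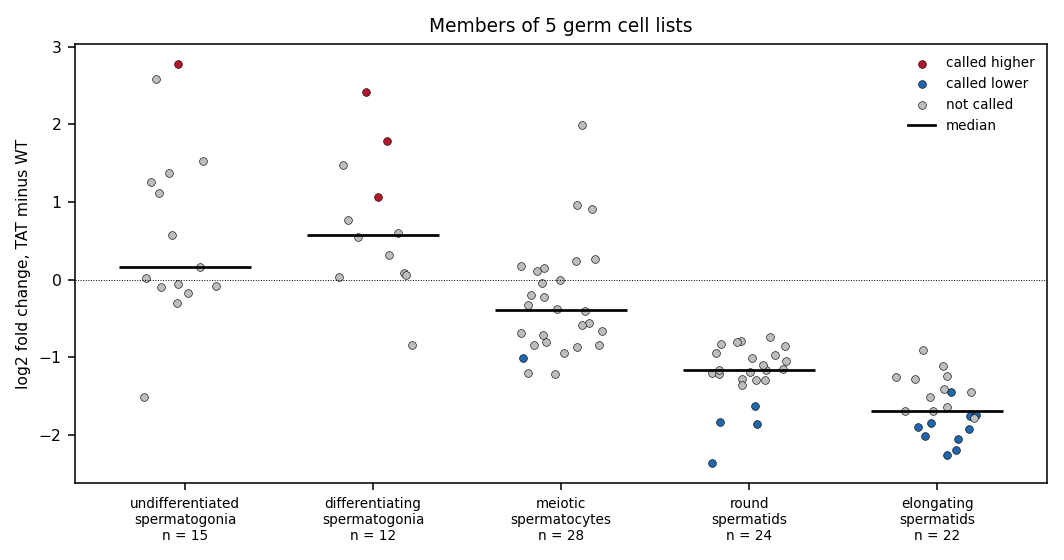
Log2 fold changes of list members in TAT compared to WT, 1 point per gene, with a line at the median, for spermatogonial, meiotic, round and elongating spermatid lists. The medians run from 0.58 in differentiating spermatogonia to -0.39, -1.16 and -1.69 in meiotic, round and elongating stages.

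Few spermatogonial genes were called. Of 15 genes of undifferentiated spermatogonia, 1 was higher and none lower (median 0.17), and of 12 genes of differentiating spermatogonia 3 were higher and none lower (median 0.58), compared with 14.4% of all genes higher. *Foxo1*, a transcription factor gene of stem and progenitor spermatogonia that other cells also express, measured 9.55, 5.16 and 11.4 CPM in the WT animals and 59.5, 22.8 and 96.3 CPM in TAT (log2 fold change 2.78, SE 0.47, adjusted p = 0.00269). In TM *Foxo1* was at 206, 259 and 343 CPM and the germ cell gene *Ddx4* at 50.4, 151 and 32.3 CPM. Which cells its reads came from was not tested. *Stra8*, which marks the response to retinoic acid at differentiation and meiotic entry, measured 5.66, 18.8 and 15.5 CPM in the WT animals and 69.4, 57.8 and 89.3 CPM in TAT (log2 fold change 2.41, SE 0.45, adjusted p = 0.00387). *Uchl1*, a ubiquitin hydrolase gene of spermatogonia, measured 10.6, 14.7 and 17 CPM in the WT animals and 38.3, 39.6 and 68.8 CPM in TAT (log2 fold change 1.78, SE 0.31, adjusted p = 0.00297). TAT lay above WT in each of the 3 genes. *Dnmt3b*, a DNA methyltransferase gene, rose by 1.06 on the log2 scale. The spermatogonial genes *Gfra1* (0.58, adjusted p = 0.576), *Zbtb16* (1.37, adjusted p = 0.081) and *Sall4* (1.26, adjusted p = 0.224) did not pass, and *Lhx1* had a log2 fold change of -1.52 (adjusted p = 0.0799). Of the first 3, the study uses GFRA1 to mark the population enriched for stem cells, and the other 2 for spermatogonia more broadly. *Zbtb16* passed in 4 alternative settings and *Lhx1* in 3, but *Gfra1* and *Sall4* in none. A fit of WT and TAT alone called 1 gene of differentiating spermatogonia lower. The undifferentiated count became 2 without WT 79811. For undifferentiated spermatogonia in other settings, the number of higher genes was from 2 with a fit of WT and TAT alone or thinned counts to 4 with DESeq2 and the number of lower genes was 1 with a fit of WT and TAT alone, DESeq2 or thinned counts. The test no longer passed for *Dnmt3b* without KO 79781, WT 79852 or KO 79853 (adjusted p 0.0694 to 0.101).

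Sertoli cell genes were higher. Of 17 tested, 6 were higher and none lower (median 1.48), and the summed level of the list was 2153, 2933 and 2455 CPM in WT compared to 6753, 6095 and 6294 CPM in TAT, without overlap. *Clu*, which encodes the secreted chaperone clusterin, measured 849, 1589.8 and 1233 CPM in the WT animals and 3704, 3101 and 3283 CPM in TAT (log2 fold change 1.46, SE 0.25, adjusted p = 0.0026). *Trf*, which encodes transferrin, measured 21.9, 25.2 and 17.1 CPM in the WT animals and 101, 52.9 and 59.1 CPM in TAT (log2 fold change 1.73, SE 0.31, adjusted p = 0.00323). KO 79781 was highest in both genes, and TAT did not overlap WT. The lysosomal protease gene *Ctsl* rose by 1.86 on the log2 scale. *Sox9*, *Rhox8*, *Cst12* and *Gata1* had log2 fold changes of 1.45, 1.48, 1.14 and 0.59 and did not pass (adjusted p from 0.0521 to 0.648). *Rhox8* passed in 11 alternative settings, *Cst12* in 8 and *Sox9* in 4, and *Gata1* in none. *Rhox8* and *Cst12* passed with limma-voom and blocked limma-voom. The 6 Sertoli calls became 2 without KO 79781 and 11 without KO 79853. For Sertoli cells in other settings, the number of higher genes was 10 with total library size, 11 with pieces as replicates and 12 with a fit of WT and TAT alone. The number of lower genes was 1 with a fit of WT and TAT alone, limma-voom, blocked limma-voom, DESeq2 or RLE size factors. It was also 1 with no low-count filter, with thinned counts and without KO 79813. Calls did not hold for *Clu* and *Trf* without KO 79781 (adjusted p 0.0524 to 0.0599).

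Of 14 genes of the junctions that form the blood-testis barrier, 5 were higher and none lower (median 1.43). *Gja1*, which encodes connexin 43, measured 30.2, 24.1 and 27.3 CPM in the WT animals and 267, 86.5 and 395 CPM in TAT (log2 fold change 3.20, SE 0.44, adjusted p = 0.00134). *Ctnna1*, which encodes α-catenin, measured 24.7, 22.3 and 26 CPM in the WT animals and 97, 59.8 and 92.8 CPM in TAT (log2 fold change 1.77, SE 0.23, adjusted p = 0.00118). *F11r*, a tight junction adhesion gene, measured 44.7, 24.2 and 35.7 CPM in the WT animals and 133, 85.3 and 119 CPM in TAT (log2 fold change 1.69, SE 0.28, adjusted p = 0.00232). None of the 3 overlapped WT, and *Gja1* was lowest in KO 79813. *Cdh2*, which encodes N-cadherin, rose by 1.24. The 5 calls became 3 without KO 79781 and 3 without WT 79852. For junction genes in other settings, the number of higher genes was 8 with a fit of WT and TAT alone. The number of lower genes was 1 with limma-voom. The call was lost for *Cdh2* without KO 79781, WT 79783 or WT 79852 (adjusted p 0.12 to 0.138). Other settings gave no call for *Cdh2* with limma-voom, RLE size factors, no low-count filter or testis 1 of KO 79813 alone (adjusted p 0.0541 to 0.073).

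The Leydig cell list had the lowest median of the 42 lists. Of 14, 11 were lower and 1 was higher (median -2.81), and their summed level was 6026, 3473 and 3159 CPM in WT compared to 524, 495 and 379.8 CPM in TAT. *Insl3*, which encodes an insulin-like hormone of Leydig cells, measured 5154, 2152 and 2222 CPM in the WT animals and 183, 298 and 158 CPM in TAT (log2 fold change -3.90, SE 0.63, adjusted p = 0.00229). *Cyp17a1*, which encodes the enzyme that turns progestogens into androgens, measured 113, 240.1 and 158 CPM in the WT animals and 10.5, 12.9 and 20.2 CPM in TAT (log2 fold change -3.55, SE 0.61, adjusted p = 0.00276). *Bhmt*, a methyltransferase gene, measured 85.4, 89.1 and 89.6 CPM in the WT animals and 11.2, 14.4 and 3.34 CPM in TAT (log2 fold change -3.19, SE 0.53, adjusted p = 0.00254). WT and TAT did not overlap in these 3 genes. The N tubules were low as well, with 316, 254 and 282 CPM of *Insl3* and 11.2, 9.13 and 8.34 CPM of *Cyp17a1*. *Ephx1*, an epoxide hydrolase gene, fell by 1.89. The kallikrein genes *Klk1b27*, *Klk1b24* and *Klk1b21* had log2 fold changes of -7.98, -6.13 and -4.88, but this family is nearly identical in sequence and reads could be split among its members. The exception was *Lhcgr*, the luteinising hormone receptor gene, which measured 0.884, 5.23 and 1 CPM in the WT animals and 21.7, 8 and 21.1 CPM in TAT (log2 fold change 2.73, SE 0.69, adjusted p = 0.0169). Counts of lower Leydig genes became 4 without KO 79781. No call was made for *Insl3* and *Cyp17a1* without KO 79781 (adjusted p 0.0522 to 0.0554), *Klk1b21* without KO 79781 or WT 79811 (adjusted p 0.0572 to 0.0862), and *Lhcgr* without KO 79781, WT 79783 or WT 79852 (adjusted p 0.058 to 0.117).

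Steroid synthesis genes did not move as 1 group. Of 15, 8 were higher and 1, *Cyp17a1*, was lower (median 1.03). *Hsd3b1*, which encodes a 3β-hydroxysteroid dehydrogenase of steroid synthesis, measured 93.2, 77.8 and 69.7 CPM in the WT animals and 735, 173 and 1020.0 CPM in TAT (log2 fold change 3.00, SE 0.48, adjusted p = 0.00207). *Hsd17b1*, whose enzyme forms oestradiol from oestrone, measured 6.19, 3.31 and 4.92 CPM in the WT animals and 91.2, 27.5 and 179 CPM in TAT (log2 fold change 4.40, SE 0.58, adjusted p = 0.0012). *Cyp11a1*, the cholesterol side-chain cleavage enzyme gene, measured 113, 171 and 131 CPM in the WT animals and 498, 166 and 372 CPM in TAT (log2 fold change 1.32, SE 0.37, adjusted p = 0.0271). KO 79813 was far below the other TAT animals in these genes, and for *Cyp11a1* lay within the WT range. *Fdxr*, which passes electrons to the mitochondrial P450 enzymes, rose by 1.46. *Hsd17b3*, whose enzyme makes testosterone, had a log2 fold change of -1.51 (adjusted p = 0.197). It passed in 3 alternative settings: a fit of WT and TAT alone, limma-voom and blocked limma-voom. The 8 calls became 2 without KO 79781 and 5 without WT 79852. For steroid synthesis in other settings, the number of lower genes was 3 with a fit of WT and TAT alone. The test no longer passed for *Fdxr* without KO 79781 (adjusted p = 0.0544) and *Cyp11a1* without KO 79781, WT 79783, WT 79852 or KO 79853 (adjusted p 0.0637 to 0.175). The call also failed for *Cyp11a1* with limma-voom (adjusted p = 0.0522).

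Of 5 genes of fetal Leydig cells and adrenal cortex that were tested, 2 were higher, *Ren1* and *Thbs2* (list median 2.75, or 2.52 with *Cyp11b1* at its bound). *Ren1*, the renin gene, measured 1.94, 2.88 and 3.29 CPM in the WT animals and 22.3, 3.56 and 30.5 CPM in TAT (log2 fold change 2.75, SE 0.68, adjusted p = 0.016). *Cyp11b1*, an adrenal enzyme gene, had 0 counts in WT and 26 in TAT, all from KO 79853, which is at least 5.72-fold higher over the group with a floor of 3 counts. It did not pass (adjusted p = 0.201). In cholesterol synthesis and uptake, 2 of 19 genes were higher, *Mvd* and *Sc5d*, and 1 was lower (median of the list 0.34). Over all genes, 14.4% were higher and 4.61% lower, so these counts are near the shares of all genes. The lower one was the squalene synthase gene *Fdft1*, which measured 487, 261 and 302 CPM in the WT animals and 109, 154 and 117 CPM in TAT. *Fdft1* had a log2 fold change of -1.47, and its groups did not overlap. The 2 fetal Leydig calls became 0 without KO 79781, 0 without WT 79783, 1 without WT 79811, 0 without WT 79852 and 1 without KO 79853, and the 2 higher cholesterol calls became 0 without KO 79781, 1 without WT 79783, 5 without KO 79813, 0 without WT 79852 and 1 without KO 79853. The lower cholesterol count became 0 without KO 79781 and 4 without KO 79813. For fetal Leydig and adrenal genes in other settings, the number of higher genes was 0 with limma-voom or blocked limma-voom. For cholesterol genes in other settings, the number of higher genes was 5 with total library size and the number of lower genes was 3 with thinned counts and 4 with DESeq2 or RLE size factors. Calls did not hold for *Fdft1* without KO 79781 (adjusted p = 0.0657), *Sc5d* without KO 79781, WT 79783 or WT 79852 (adjusted p 0.0865 to 0.128), *Ren1* without KO 79781, WT 79783, WT 79811 or WT 79852 (adjusted p 0.0502 to 0.098), and *Thbs2* and *Mvd* without KO 79781, WT 79783, WT 79852 or KO 79853 (adjusted p 0.0604 to 0.17). In other settings the call was lost for *Ren1* and *Thbs2* with limma-voom or blocked limma-voom (adjusted p 0.123 to 0.266) and *Mvd* with limma-voom, blocked limma-voom or testis 1 of KO 79813 alone (adjusted p 0.0582 to 0.0761).

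Genes of ovarian granulosa cells were higher, with the highest median of the 42 lists (3.94): of 12 tested, 10 were higher and none lower. Granulosa cells are the ovarian counterpart of Sertoli cells. *Inhba*, which encodes the activin βA subunit, measured 19.3, 14.7 and 13.5 CPM in the WT animals and 319.7, 70.3 and 912 CPM in TAT (log2 fold change 4.78, SE 0.74, adjusted p = 0.00188). *Fst*, which encodes follistatin, measured 1.94, 0.562 and 1.81 CPM in the WT animals and 39.3, 10.9 and 95.5 CPM in TAT (log2 fold change 5.18, SE 0.77, adjusted p = 0.00164). *Esr2*, the oestrogen receptor β gene, had 3 counts in WT and 532 in TAT, a ratio of 117 with a 95% counting interval of 39.8 to 569. KO 79853 was highest and KO 79813 lowest in all 3 genes, and each TAT animal stood above each WT animal. Such intervals and bounds cover counting error only. The summed level of the list was 46, 34.7 and 40.1 CPM in WT compared to 659, 197 and 1575 CPM in TAT.

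Of 16 genes of activin and inhibin signalling, 7 were higher and 1, *Inha*, was lower (median 1.74). Besides the activin subunit and follistatin genes, *Fstl3*, which encodes an activin-binding protein related to follistatin, measured 12.4, 13.3 and 15 CPM in the WT animals and 71.6, 43.5 and 63.7 CPM in TAT (log2 fold change 2.13, SE 0.25, adjusted p = 0.000876). The calls also took in the β subunit *Inhbb* (3.61), the receptor *Acvr2b* (2.50) and the signal transducers *Smad3* (1.89) and *Smad4* (1.58), 4 genes named after their values were seen. For the receptor genes *Acvr2a*, *Acvr1* and *Acvr1b* the log2 fold changes were -0.29, 0.32 and 0.93, without a call. In N tubules *Inhba* measured 60.8, 44.4 and 74.9 CPM and *Fst* 5.63, 6.46 and 9.31 CPM, and in TM 1338, 1073 and 2366 and 175, 151 and 333 CPM.

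Markers of vessels, myoid cells and blood were higher in TAT, and their part in the other results was not tested. TAT were picked by their strong vascularisation, so a rise of vessel and blood genes is not independent of how the pieces were chosen. Of 20 endothelial genes, 10 were higher and none lower (median 2.77), with a summed level of 30.1, 57.8 and 44.2 CPM in WT compared to 125, 84.2 and 222 CPM in TAT. *Robo4*, an endothelial guidance receptor gene, had 2 counts in WT and 636 in TAT, a ratio of 209.8 with a 95% counting interval of 57.8 to 1736. In the N tubules *Robo4* was at 7.18, 3.65 and 10.6 CPM, compared with 7.81, 5.99 and 10.4 CPM in TAT. The endothelial list had a median log2 difference of 1.55 in TAT compared to N, with 17 of 20 genes above 0. *Kdr*, the VEGF receptor 2 gene, measured 0.707, 2.78 and 2.39 CPM in the WT animals and 11.9, 7.26 and 30.1 CPM in TAT (log2 fold change 2.99, SE 0.64, adjusted p = 0.00771). *Pecam1*, an endothelial adhesion gene, measured 0.354, 0.959 and 0.43 CPM in the WT animals and 3.09, 2.05 and 4.43 CPM in TAT (log2 fold change 2.38, SE 0.73, adjusted p = 0.0386). All TAT animals stood above WT, although the *Pecam1* levels were low. *Esam* and *Ctla2a* rose by 3.08 and 4.73. The 10 endothelial calls became 3 without KO 79781 and 5 without WT 79852. For endothelial genes in other settings, the number of higher genes was 4 with blocked limma-voom and 5 with limma-voom. The call was lost for *Kdr* without KO 79781 (adjusted p = 0.0538) and *Pecam1* without KO 79781, WT 79783, WT 79852 or KO 79853 (adjusted p 0.0945 to 0.161). Other settings gave no call for *Kdr* with blocked limma-voom (adjusted p = 0.0556), *Ctla2a* with limma-voom or blocked limma-voom (adjusted p 0.0949 to 0.114), and *Pecam1* with limma-voom, blocked limma-voom or thinned counts (adjusted p 0.0614 to 0.0784).

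Of 13 myoid and smooth muscle genes, 7 were higher and none lower (median 1.84). *Acta2*, which encodes smooth muscle actin, measured 48.6, 74.6 and 73.3 CPM in the WT animals and 415, 183 and 1048 CPM in TAT (log2 fold change 3.06, SE 0.62, adjusted p = 0.00604). *Tagln*, which encodes transgelin, measured 10.4, 10.8 and 8.92 CPM in the WT animals and 51.3, 35 and 199 CPM in TAT (log2 fold change 3.24, SE 0.56, adjusted p = 0.00299). KO 79853 was far above the other TAT animals in both genes, and TAT did not overlap WT. *Smtn*, *Tpm2* and *Fbxl22* rose by 2.29, 2.68 and 2.15. The 7 calls became 2 without KO 79781, 3 without WT 79783, 4 without WT 79811 and 3 without WT 79852. The globin genes of red blood cells rose together: 5 of 6 red cell genes were higher and 1 lower (median 2.43). As with the vessel genes, this is not independent of the vascularisation by which TAT were picked. *Hbb-bs*, a β-globin gene, measured 222, 187 and 168 CPM in the WT animals and 1211, 805 and 1497 CPM in TAT (log2 fold change 2.61, SE 0.37, adjusted p = 0.00143). *Hba-a1*, an α-globin gene, measured 56.7, 48.3 and 33.6 CPM in the WT animals and 278, 173 and 356 CPM in TAT (log2 fold change 2.54, SE 0.37, adjusted p = 0.00154). Reads of *Hba-a1* and *Hba-a2*, or of *Hbb-bs* and *Hbb-bt*, could be split between near-identical copies. For myoid genes in other settings, the number of higher genes was 3 with limma-voom or blocked limma-voom. The number of lower myoid genes was 1 with a fit of WT and TAT alone, limma-voom, blocked limma-voom, DESeq2 or RLE size factors. It was also 1 without KO 79853. No call was made for *Smtn* without KO 79781 (adjusted p = 0.0522), *Tpm2* without KO 79781, WT 79783 or WT 79852 (adjusted p 0.0553 to 0.0615), and *Fbxl22* without KO 79781, WT 79783, WT 79811, WT 79852 or KO 79853 (adjusted p 0.0785 to 0.123). The call also failed for *Tpm2* with limma-voom or blocked limma-voom (adjusted p 0.0739 to 0.0875) and *Fbxl22* with limma-voom, blocked limma-voom or testis 1 of KO 79813 alone (adjusted p 0.0573 to 0.145).

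Of 15 macrophage genes, 7 were higher and none lower (median 1.68), but their summed level overlapped, with 386, 607 and 528 CPM in WT compared to 657, 544 and 482 CPM in TAT. *Aif1* alone measured 264, 490.4 and 406 CPM in WT compared to 178, 219.9 and 99.4 CPM in TAT (log2 fold change -1.22, not called). *Aif1* was named after its values were seen, and it is expressed by spermatids too. *Lyz2*, a lysozyme gene of macrophages, measured 44.2, 38.7 and 35.3 CPM in the WT animals and 271, 153 and 203 CPM in TAT (log2 fold change 2.41, SE 0.30, adjusted p = 0.001). *Tyrobp*, an adaptor gene of myeloid receptors, measured 3.36, 5.56 and 4.49 CPM in the WT animals and 23.2, 15 and 17.2 CPM in TAT (log2 fold change 2.02, SE 0.36, adjusted p = 0.00349). *Csf1r*, the receptor gene for macrophage colony stimulating factor, measured 5.3, 4.2 and 5.25 CPM in the WT animals and 17.8, 14.9 and 13 CPM in TAT (log2 fold change 1.63, SE 0.37, adjusted p = 0.0103). TAT lay above WT in the 3 genes, with KO 79853 not the highest in any of them. *Cd68* and *Cx3cr1* rose by 2.40 and 1.98. Of 9 lymphocyte genes none was higher and 1, *Cd3d*, was lower (log2 fold change -1.5; list median 1.89), with the T cell gene *Cd3e* at 1 count in WT and 71 in TAT and the B cell gene *Cd79a* at 3 and 32. Of 6 tested genes of rete testis and ducts, 1 was higher (median 2.87), compared with 14.4% of all genes. This was *Krt18*, a keratin gene, which measured 0, 0.364 and 1.19 CPM in the WT animals and 38.8, 4.23 and 10.6 CPM in TAT (log2 fold change 4.89, SE 1.07, adjusted p = 0.00871). *Pax8*, a duct transcription factor gene, had 0 counts in WT and 100 in TAT, at least 22-fold higher (adjusted p = 0.0505). *Pax8* passed in 4 alternative settings. The 7 macrophage calls became 2 without KO 79781. The number of lower macrophage genes was 1 with a fit of WT and TAT alone, limma-voom, blocked limma-voom, DESeq2 or RLE size factors. It was also 1 without KO 79813. For duct genes in other settings, the number of higher genes was 3 with DESeq2. The test no longer passed for *Csf1r*, *Cd68* and *Krt18* without KO 79781 (adjusted p 0.0585 to 0.104), *Cx3cr1* without KO 79781 or WT 79852 (adjusted p 0.0635 to 0.112), and *Cd3d* without KO 79781, WT 79783, WT 79811, WT 79852 or KO 79853 (adjusted p 0.0789 to 0.135). In other settings the call was lost for *Krt18* with limma-voom or blocked limma-voom (adjusted p 0.0767 to 0.0847) and *Cd3d* with total library size or thinned counts (adjusted p 0.0581 to 0.0678).

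Extracellular matrix genes rose in all 3 matrix lists. Among basement membrane genes 10 of 17 were higher (median 1.71), among interstitial matrix genes 14 of 18 (median 2.88), and among matrix proteases and inhibitors 12 of 18 (median 3.28, or 2.81 with *Mmp9* and *Plaur* at their bounds), and none was lower. *Col1a1*, a chain of collagen I, measured 11.7, 11.1 and 11.4 CPM in the WT animals and 153, 91.2 and 539 CPM in TAT (log2 fold change 4.52, SE 0.64, adjusted p = 0.00143). *Col18a1*, a vessel and epithelial basement membrane collagen, measured 10.4, 11.4 and 11.1 CPM in the WT animals and 89.2, 69.6 and 119 CPM in TAT (log2 fold change 3.07, SE 0.27, adjusted p = 0.000281). *Sparc*, a collagen-binding matrix protein gene, measured 274, 289 and 281 CPM in the WT animals and 1323, 1027 and 1782 CPM in TAT (log2 fold change 2.29, SE 0.29, adjusted p = 0.00118). WT animals lay within a narrow range, and each TAT animal stood clearly above it. *Serpinh1*, the collagen chaperone gene, measured 26, 18.7 and 15.5 CPM in the WT animals and 307, 146 and 474 CPM in TAT (log2 fold change 3.95, SE 0.41, adjusted p = 0.000761). *Timp1*, a metalloprotease inhibitor gene, measured 2.83, 2.58 and 1.96 CPM in the WT animals and 36.8, 27.6 and 75 CPM in TAT (log2 fold change 4.26, SE 0.58, adjusted p = 0.00133). *Mmp11* (stromelysin 3) and *Adamts2* (procollagen peptidase) rose by 3.59 and 2.96. KO 79853 had the highest level of each of these genes. *Lamb2*, *Col4a2*, *Col6a1*, *Col1a2* and *Fbln2* rose by 1.60, 3.10, 3.34, 4.02 and 4.28. The calls became 5 without KO 79781 for basement membrane and 9 without KO 79781 for interstitial matrix.

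Growth factors that reach the spermatogonial niche were higher in part. Of 28 tested, 9 were higher and none lower (median 1.55). The lowest log2 fold change in the list was -6.67, without a call. *Kitl*, the KIT ligand gene, measured 1.41, 4.2 and 5.77 CPM in the WT animals and 42.8, 40.4 and 16.2 CPM in TAT (log2 fold change 3.06, SE 0.50, adjusted p = 0.00231). *Igf1*, which encodes insulin-like growth factor 1, measured 7.07, 16.7 and 9.35 CPM in the WT animals and 66.1, 33.8 and 84 CPM in TAT (log2 fold change 2.45, SE 0.37, adjusted p = 0.00166). *Wnt5a*, a WNT ligand gene, measured 0.354, 2.05 and 2.1 CPM in the WT animals and 29.8, 8.85 and 24.5 CPM in TAT (log2 fold change 3.67, SE 0.61, adjusted p = 0.00254). TAT lay above WT in all 3, and *Kitl* was the one in which KO 79853 was the lowest TAT animal. *Tgfb3* and *Fgf2* rose by 2.29 and 3.40. *Gdnf*, the self-renewal factor of spermatogonial stem cells, was at 3.54, 0.794 and 0.859 CPM in WT compared to 5.07, 1.82 and 11.3 CPM in TAT and did not pass (log2 fold change 1.96, adjusted p = 0.132), nor did *Bmp4* (2.18, adjusted p = 0.0831). *Bmp4* passed in 5 alternative settings, with limma-voom and DESeq2 among them, and *Gdnf* in none. Of 22 receptors, 8 were higher and none lower (median 1.17). *Fgfr1*, an FGF receptor gene, measured 3.36, 2.38 and 2.96 CPM in the WT animals and 12.8, 9.91 and 15.1 CPM in TAT (log2 fold change 2.13, SE 0.35, adjusted p = 0.00231). *Bmpr1a*, *Egfr* and *Bmpr1b*, receptors for bone morphogenetic proteins and for epidermal growth factor, rose by 1.63, 3.66 and 4.39. The 9 ligand calls became 3 without KO 79781, and the 8 receptor calls became 2 without KO 79781. For niche growth factors, the number of lower genes was 1 without KO 79813 and with limma-voom, blocked limma-voom, DESeq2 or RLE size factors. It was also 1 with a fit of WT and TAT alone, no low-count filter, testis 1 of KO 79813 alone or thinned counts. Calls did not hold for *Tgfb3*, *Egfr* and *Bmpr1b* without KO 79781 (adjusted p 0.0546 to 0.0654) and *Fgf2* without KO 79781, WT 79783, WT 79811, KO 79813 or KO 79853 (adjusted p 0.0581 to 0.143). Other settings gave no call for *Egfr* with limma-voom or blocked limma-voom (adjusted p 0.142 to 0.163).

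Cell cycle genes moved in both directions. Of 30, 12 were higher and 4 lower (median 0.49), compared with 14.4% and 4.61% of all genes. *Mcm2*, a subunit gene of the replicative helicase, measured 7.42, 7.54 and 8.54 CPM in the WT animals and 35.4, 22.1 and 43.1 CPM in TAT (log2 fold change 2.09, SE 0.27, adjusted p = 0.00118). *Tyms*, the thymidylate synthase gene, measured 5.13, 5.56 and 6.16 CPM in the WT animals and 27.9, 14 and 58.2 CPM in TAT (log2 fold change 2.56, SE 0.43, adjusted p = 0.00259). *Ccnd3*, which encodes cyclin D3, measured 215, 138 and 146 CPM in the WT animals and 61.6, 63.4 and 63.7 CPM in TAT (log2 fold change -1.40, SE 0.23, adjusted p = 0.00246). The last was opposite in direction to *Ccnd2*, and in each gene the groups did not overlap. The other genes that fell were the mitotic kinase gene *Plk1* (-0.87), the mitotic transcription factor gene *Foxm1* (-0.91) and the cyclin B1 gene *Ccnb1* (-0.60). The 12 higher calls became 3 without KO 79781 and the 4 lower calls became 0 without KO 79781, 1 without WT 79783, 2 without WT 79811, 1 without WT 79852 and 1 without KO 79853. For cell cycle genes in other settings, the number of lower genes was 1 with total library size and 2 with limma-voom or blocked limma-voom. The call was lost for *Ccnd3* without KO 79781 (adjusted p = 0.0532), *Foxm1* without KO 79781, WT 79783, WT 79852 or KO 79853 (adjusted p 0.111 to 0.219), *Plk1* without KO 79781, WT 79783, WT 79811, WT 79852 or KO 79853 (adjusted p 0.0547 to 0.162), and *Ccnb1* without KO 79781, WT 79783, WT 79811, KO 79813, WT 79852 or KO 79853 (adjusted p 0.0625 to 0.218). The call also failed for *Plk1* with total library size (adjusted p = 0.0908), *Foxm1* with limma-voom, blocked limma-voom or total library size (adjusted p 0.0578 to 0.109), and *Ccnb1* with a fit of WT and TAT alone, pieces as replicates, limma-voom, blocked limma-voom, total library size, no low-count filter or thinned counts (adjusted p 0.0128 to 0.216, with a fold under 1.5 where it was below 0.05).

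Of 79 cytosolic ribosomal protein genes, 38 were higher and none lower (median 0.72), and their summed level was 35398, 41864 and 36059 CPM in WT compared to 58366, 45794 and 73352 CPM in TAT. The X-linked members rose most: all 4 were higher, with a median log2 fold change of 2.97, compared with 34 of 75 autosomal members and a median of 0.70. The X chromosome is silenced in male germ cells during meiosis. *Rps4x* measured 16.4, 27.3 and 16.2 CPM in the WT animals and 195, 81.4 and 330.0 CPM in TAT (log2 fold change 3.33, SE 0.48, adjusted p = 0.00148). *Rpl39* measured 22.5, 30.5 and 27.3 CPM in the WT animals and 205, 86.4 and 334 CPM in TAT (log2 fold change 2.96, SE 0.39, adjusted p = 0.0012). *Rpl36a* measured 31.8, 47.2 and 33.9 CPM in the WT animals and 307, 127 and 458 CPM in TAT (log2 fold change 2.98, SE 0.39, adjusted p = 0.00118). Each of the 3 was lowest in KO 79813 and still above WT. The autosomal gene *Rps3*, which encodes a protein of the small subunit, rose by 1.75. Ribosomal protein genes have many processed copies, which can take or give reads. The 38 calls became 7 without KO 79781, 24 without WT 79852 and 16 without KO 79853. For cytosolic ribosomal genes in other settings, the number of higher genes was 64 with total library size. The number of lower genes was 1 with pieces as replicates, DESeq2 or RLE size factors and without WT 79811.

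In the lists of energy metabolism the X-linked members were few, and most of them were called higher. Of 74 nuclear genes of oxidative phosphorylation, 20 were higher and none lower (median 0.41): 3 of 3 X-linked (median 1.48) and 17 of 71 autosomal (median 0.38). *Cox7b*, an X-linked cytochrome c oxidase subunit gene, measured 18.2, 27.4 and 15.7 CPM in the WT animals and 116, 37.9 and 169 CPM in TAT (log2 fold change 2.39, SE 0.43, adjusted p = 0.0035). *Cox8a*, an autosomal subunit gene of that enzyme, measured 67, 71.5 and 68.4 CPM in the WT animals and 272, 139 and 294 CPM in TAT (log2 fold change 1.77, SE 0.26, adjusted p = 0.00154). Of 11 somatic isozymes for which germ cells have their own copy, 6 were higher (median 1.46), and of the 12 germ cell isozymes 1 was lower and none higher (median -0.79). *Pdha1*, the X-linked somatic pyruvate dehydrogenase gene, measured 1.24, 5.72 and 2.48 CPM in the WT animals and 21.2, 15 and 20.3 CPM in TAT (log2 fold change 2.51, SE 0.45, adjusted p = 0.00351). *Gapdhs*, the spermatid glyceraldehyde phosphate dehydrogenase gene, measured 457, 545 and 433 CPM in the WT animals and 139.9, 147 and 110.0 CPM in TAT (log2 fold change -1.85, SE 0.57, adjusted p = 0.0391). The groups did not overlap in these genes. *Ndufa4* and *Cox6b1* rose by 1.78 and 1.77. *Cox7b*, *Cox8a* and *Cox6b1* are in both the oxidative phosphorylation and the somatic isozyme list. Of 13 mitochondrially encoded protein genes 8 were higher (median 0.76). The higher mitochondrial share of counts in TAT libraries given above includes these genes, so it is not a separate result. *mt-Nd1*, a complex I subunit gene, measured 958, 1003 and 965 CPM in the WT animals and 2073, 1703 and 2242 CPM in TAT (log2 fold change 1.04, SE 0.20, adjusted p = 0.00459). *mt-Nd3*, *mt-Nd4* and *mt-Nd4l* rose by 1.15, 0.91 and 0.97. Of 77 mitochondrial ribosomal protein genes 17 were higher and 1, *Mrps36*, was lower (median 0.25), compared with 14.4% and 4.61% of all genes. *Mrpl14*, *Mrps21*, *Mrpl34* and *Mrpl21* rose by 1.47, 1.47, 1.31 and 1.60. The lower germ cell isozyme count became 5 without KO 79813 and 0 without any other animal. The 6 somatic isozyme calls became 3 without KO 79781. The 20 oxidative phosphorylation calls became 4 without KO 79781, 13 without WT 79783, 8 without WT 79852 and 8 without KO 79853. The 8 mitochondrially encoded calls became 0 without KO 79781, 4 without WT 79811, 3 without WT 79852 and 3 without KO 79853. The 17 mitoribosomal calls became 2 without KO 79781, 9 without WT 79811, 6 without WT 79852 and 5 without KO 79853. For oxidative phosphorylation in other settings, the number of higher genes was 40 with total library size and the number of lower genes was 2 with DESeq2. For germ cell isozymes in other settings, the number of lower genes was from 3 with pieces as replicates, DESeq2, RLE size factors, no low-count filter, testis 1 of KO 79813 alone or thinned counts to 6 with a fit of WT and TAT alone (5 with blocked limma-voom). For mitoribosomal genes in other settings, the number of higher genes was 34 with total library size and the number of lower genes was 4 with DESeq2. No call was made for *Pdha1*, *mt-Nd1*, *mt-Nd3*, *mt-Nd4*, *Mrpl34* and *Mrpl21* without KO 79781 (adjusted p 0.0536 to 0.125), *mt-Nd4l* without KO 79781, WT 79783, WT 79852 or KO 79853 (adjusted p 0.0507 to 0.126), and *Gapdhs* and *Mrps36* without KO 79781, WT 79783, WT 79811, WT 79852 or KO 79853 (adjusted p 0.0514 to 0.142). In other settings the call was lost for *Mrps36* with total library size (adjusted p = 0.0945).

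Over all genes, 202 of 839 X-linked genes were higher (24.1%) and 28 lower (3.34%), with a median log2 fold change of 0.62, compared with 14.1% and 4.68% of 18686 autosomal genes and a median of 0.07. Among genes with a WT mean of 1 to 10 CPM, 28.4% of X-linked and 17.8% of autosomal genes were higher, and at 10 to 100 CPM 29.0% and 15.3%. At those higher levels the medians of X-linked genes were not above those of autosomal genes: they were -0.13 and -0.10 at 10 to 100 CPM, where 7.79% and 6.04% were lower, and -1.24 and -0.64 over 100 CPM, where 20% and 18.9% were lower and 14.3% and 4.97% higher. Under 1 CPM, 13.4% and 11.8% were higher. Genes of 1 chromosome are not independent replicates, so no test is given. The 155 tested Y-linked genes had a median of -1.46, with 2 higher and 6 lower, and many belong to multicopy families in which reads could be split. Protein-coding genes were higher in 17% and lower in 4.95%, and lincRNA genes in 2.56% and 3.15%. Antisense genes had a median of -0.89, but the labels and methods do not say whether the counting used strand, and the shortened name of the deposited table ends in letters that may stand for forward. Without strand, reads from a gene and its antisense partner could not be told apart. None of 426 genes with a 1700-series RIKEN symbol was higher, and 43 (10.1%) were lower, with a median of -1.19. Among genes with a WT mean over 1000 CPM, 4 were higher and 22 of 116 lower.

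**Figure D5:**
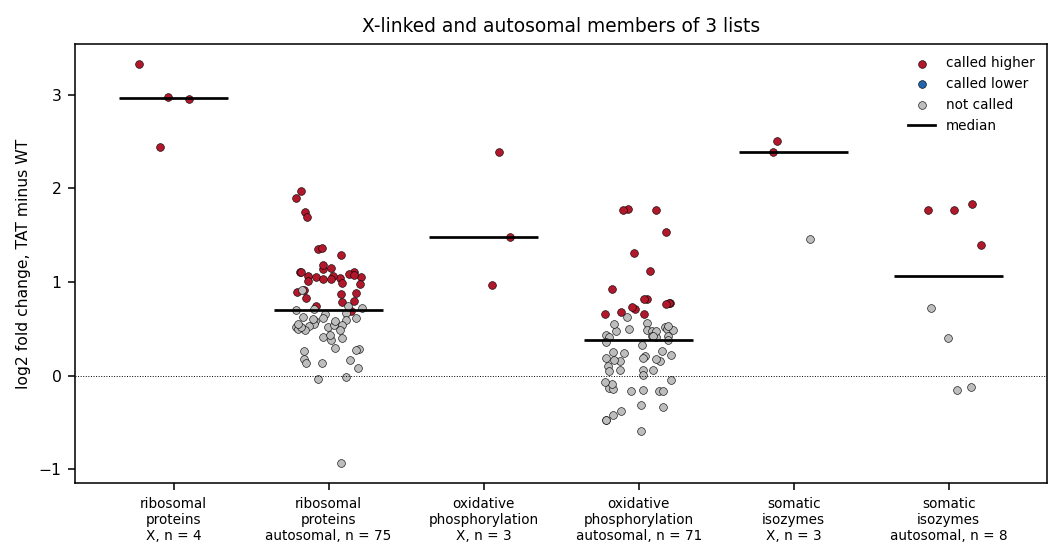
Log2 fold changes in TAT compared to WT of X-linked and autosomal members of the ribosomal protein, oxidative phosphorylation and somatic isozyme lists, 1 point per gene with a line at the median. The X-linked medians are 2.97, 1.48 and 2.39, and the autosomal medians 0.70, 0.38 and 1.06. The oxidative phosphorylation and isozyme lists share genes, among them the X-linked *Cox7b* (2.39).

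In the endoplasmic reticulum (ER), genes moved in both directions. Of 29 translocation and glycosylation genes 10 were higher and none lower (median 0.23), and of 25 chaperone and unfolded protein response genes 5 were higher and 3 lower (median 0.25). These counts stood against 14.4% higher and 4.61% lower over all genes. The unfolded protein response senses misfolded protein in the ER and raises chaperone transcription through ATF6, XBP1 and ATF4. *Ssr4*, a subunit gene of the translocon-associated protein complex, measured 29.2, 38.3 and 29.6 CPM in the WT animals and 117, 66.7 and 163 CPM in TAT (log2 fold change 1.83, SE 0.29, adjusted p = 0.00188). *Xbp1*, the transcription factor gene, measured 45.1, 30.1 and 28.4 CPM in the WT animals and 109, 60.9 and 124 CPM in TAT (log2 fold change 1.51, SE 0.29, adjusted p = 0.00437). *Herpud1*, which encodes a component of ER-associated degradation, measured 273, 281 and 297 CPM in the WT animals and 111, 124 and 85.1 CPM in TAT (log2 fold change -1.41, SE 0.22, adjusted p = 0.00195). The first pair lay above WT and *Herpud1* below it, without overlap. *Ssr3*, *Kdelr3* and *Ostc* rose by 1.78, 3.58 and 1.22, and the chaperone and quality control genes *Pdia4* and *Sel1l* by 1.29 and 0.78. *Dnajb9*, a co-chaperone gene of BiP, fell by 1.15, and *Creld2*, an ER stress gene, by 0.73. The 10 translocation calls became 3 without KO 79781 and 6 without KO 79853. The 5 higher chaperone calls became 1 without KO 79781 and the 3 lower 1 without KO 79781, 1 without WT 79783 and 1 without KO 79853. For translocation genes in other settings, the number of lower genes was 4 with RLE size factors and 5 with DESeq2. For chaperone genes in other settings, the number of higher genes was 10 with total library size. The test no longer passed for *Xbp1*, *Ostc* and *Pdia4* without KO 79781 (adjusted p 0.0531 to 0.0633), *Sel1l* without KO 79781 or KO 79853 (adjusted p 0.0514 to 0.123), *Dnajb9* without KO 79781, WT 79783 or KO 79853 (adjusted p 0.0531 to 0.097), and *Creld2* without KO 79781, WT 79783, WT 79811 or KO 79853 (adjusted p 0.0643 to 0.2). Other settings gave no call for *Creld2* with limma-voom or total library size (adjusted p 0.0206 to 0.127, with a fold under 1.5 where it was below 0.05).

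The ER stress response element, CCAAT and CCACG with 9 bases of any kind between them, is the DNA motif through which ATF6 acts with NF-Y. It was searched on both strands of RefSeq promoters (GRCm38.p6, 250 bases before to 50 after each start). It was in 7 of the 22 chaperone and unfolded protein response genes with a promoter in the table, compared with 0.119% of 32851 promoters. The genes were *Hspa5*, *Hsp90b1*, *Calr*, *Canx*, *Pdia6*, *Dnajc3* and *Creld2*. None was higher: the first 6 had log2 fold changes of 0.21 to 0.58 without a call, and *Creld2* measured 275, 193 and 174 CPM in the WT animals and 129.9, 149 and 109 CPM in TAT (log2 fold change -0.73, SE 0.22, adjusted p = 0.04). The promoter of *Creld2*, the member with a match that was called, is on the plus strand at chr15:88819396-88819695. Capitals mark the motif, which reads on the minus strand and begins 126 bases before the start of the gene.
Creld2: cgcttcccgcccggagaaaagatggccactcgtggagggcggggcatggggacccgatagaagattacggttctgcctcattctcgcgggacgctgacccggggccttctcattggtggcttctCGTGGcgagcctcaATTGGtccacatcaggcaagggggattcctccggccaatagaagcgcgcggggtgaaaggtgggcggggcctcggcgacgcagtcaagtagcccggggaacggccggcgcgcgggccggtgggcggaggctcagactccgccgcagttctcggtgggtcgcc

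A match describes letters and not binding. The cAMP response element, TGACG directly followed by TCA, the site of CREM, a regulator of spermatid genes, was in none of 19 elongating and 1 of 20 round spermatid promoters (*Izumo1*, not called), compared with 1.79% of all promoters.

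Lysosomal genes rose as a broad group: 18 of 22 were higher and none lower (median 1.82), and their summed level was 1355, 1257 and 1066 CPM in WT compared to 2915, 2403 and 3129 CPM in TAT. *Ctsz*, a cathepsin gene, measured 14.5, 11.9 and 15.9 CPM in the WT animals and 76.5, 42.2 and 83.6 CPM in TAT (log2 fold change 2.26, SE 0.26, adjusted p = 0.000857). *Grn*, which encodes progranulin, measured 19.98, 28.9 and 27.1 CPM in the WT animals and 123, 65.7 and 111 CPM in TAT (log2 fold change 1.98, SE 0.29, adjusted p = 0.00163). Macrophages are rich in both, and the macrophage genes above rose in the same animals, whose part in this was not tested. *Ctsa*, another cathepsin gene, rose by 1.82. DESeq2 called 1 lysosomal gene lower. Of 38 proteasome genes 12 were higher and 2 lower (median 0.46), compared with 14.4% and 4.61% of all genes. *Psma7*, a core subunit gene, measured 135, 246 and 239 CPM in the WT animals and 786, 519 and 941 CPM in TAT (log2 fold change 1.85, SE 0.28, adjusted p = 0.00169). *Psma6*, a different core subunit gene, measured 787, 813 and 839 CPM in the WT animals and 388, 429 and 307 CPM in TAT (log2 fold change -1.12, SE 0.21, adjusted p = 0.00461). Subunits of 1 complex thus moved in opposite directions without overlap between groups. *Psmb8* and *Psmb3* rose by 2.23 and 1.29, and *Psmc2* fell by 0.69. Of 11 iron and haem genes 5 were higher and 1 lower (median 1.73). *Ftl1*, the ferritin light chain gene, measured 303, 331 and 293 CPM in the WT animals and 1505, 866 and 1658 CPM in TAT (log2 fold change 2.12, SE 0.25, adjusted p = 0.000876). *Hmox1*, the haem oxygenase gene, measured 4.95, 2.91 and 2.72 CPM in the WT animals and 17.7, 10.3 and 15.5 CPM in TAT (log2 fold change 2.08, SE 0.31, adjusted p = 0.0016). *Lcn2*, which encodes a siderophore-binding lipocalin, measured 169, 184 and 129.5 CPM in the WT animals and 34.7, 18.7 and 19 CPM in TAT (log2 fold change -2.74, SE 0.62, adjusted p = 0.0103). *Fth1* and the iron exporter gene *Slc40a1* rose by 1.63 and 2.64. *Lcn2* was the member that fell, and none of these genes overlapped. The 12 proteasome calls became 2 without KO 79781, 5 without WT 79783, 5 without WT 79852 and 4 without KO 79853, and the 2 lower ones 0 without KO 79781, 1 without WT 79783, 1 without WT 79811, 1 without WT 79852 and 1 without KO 79853. For proteasome genes in other settings, the number of higher genes was 6 with RLE size factors or no low-count filter and 20 with total library size. For iron and haem genes in other settings, the number of higher genes was 8 with DESeq2. Calls did not hold for *Psma6*, *Psmb3* and *Lcn2* without KO 79781 (adjusted p 0.0654 to 0.0748) and *Psmc2* without KO 79781, WT 79783, WT 79811, WT 79852 or KO 79853 (adjusted p 0.0596 to 0.217). The call also failed for *Psmc2* with total library size (adjusted p = 0.105).

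Immediate early genes, which respond within minutes to signals, moved in both directions: 10 of 19 were higher and 2 lower (median 1.68). The shares over all genes were 14.4% and 4.61%. *Myc*, a growth-related transcription factor gene, measured 0.177, 0.529 and 0.62 CPM in the WT animals and 11.8, 5 and 14.7 CPM in TAT (log2 fold change 4.39, SE 0.49, adjusted p = 0.000802). *Jun*, an AP-1 subunit gene, measured 16.1, 9.95 and 12.1 CPM in the WT animals and 75.8, 34.3 and 82.5 CPM in TAT (log2 fold change 2.35, SE 0.33, adjusted p = 0.00143). *Nr4a1*, an orphan receptor gene, measured 28.5, 26.6 and 29.6 CPM in the WT animals and 8.01, 6.88 and 11.2 CPM in TAT (log2 fold change -1.70, SE 0.31, adjusted p = 0.00358). The first pair lay above WT and *Nr4a1* below it, without overlap. *Fos* and *Klf6* rose by 3.98 and 2.29, and *Klf4* fell by 1.06. Among 13 hypoxia response genes 4 were higher (median 1.13), including *Hif1a*, the oxygen-sensing factor gene, which measured 11.8, 12.6 and 11.3 CPM in the WT animals and 51, 28.4 and 79.7 CPM in TAT (log2 fold change 2.15, SE 0.40, adjusted p = 0.0041). *Adm* (adrenomedullin), *P4ha1* and *Epas1* rose by 5.18, 1.42 and 0.86. The 10 higher immediate early calls became 4 without KO 79781 and 6 without WT 79852, the 2 lower ones 1 without KO 79781 and 1 without KO 79853, and the 4 hypoxia calls became 1 without KO 79781, 2 without WT 79783, 2 without WT 79811 and 1 without WT 79852. For hypoxia genes in other settings, the number of higher genes was 8 with a fit of WT and TAT alone. The call was lost for *Adm* without KO 79781 or WT 79852 (adjusted p 0.0594 to 0.0632), *Klf4* without KO 79781 or KO 79853 (adjusted p 0.0519 to 0.0812), *P4ha1* without KO 79781, WT 79783, WT 79811 or WT 79852 (adjusted p 0.0602 to 0.109), and *Epas1* without KO 79781, WT 79783, WT 79811, WT 79852 or KO 79853 (adjusted p 0.055 to 0.213). In other settings the call was lost for *Adm* with limma-voom or blocked limma-voom (adjusted p 0.058 to 0.0602) and *Epas1* with RLE size factors, testis 1 of KO 79813 alone or thinned counts (adjusted p 0.053 to 0.0736).

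Of 16 complement genes 10 were higher and none lower (median 1.93), of 14 chemokines and cytokines 5 were higher (median 2.14), and of 14 antigen presentation genes 3 (median 1.5), compared with 14.4% of all genes. No member of these innate immune lists was lower by the edgeR test, and DESeq2 called 1 complement and 1 antigen presentation gene lower. *C1ra*, a protease gene of the classical pathway, measured 4.24, 14.8 and 5.54 CPM in the WT animals and 69.3, 38.2 and 67.4 CPM in TAT (log2 fold change 2.79, SE 0.53, adjusted p = 0.00429). *B2m*, the light chain of MHC class I, measured 31.6, 59 and 46.3 CPM in the WT animals and 191, 139.7 and 240.2 CPM in TAT (log2 fold change 2.06, SE 0.27, adjusted p = 0.00118). *H2-D1*, a class I heavy chain, measured 15.4, 18.1 and 10.6 CPM in the WT animals and 94.8, 59.9 and 104 CPM in TAT (log2 fold change 2.55, SE 0.27, adjusted p = 0.000795). TAT stood above WT in all 3, though class I heavy chain genes are similar in sequence and reads could be split. *C3ar1*, *C5ar1* and *Cfp* rose by 2.73, 3.96 and 2.56. The chemokines were near the detection limit in WT: *Ccl2* had 1 count in WT and 200 in TAT (ratio 132, 95% counting interval 23.4 to 5238), *Ccl7* had 1 and 74, and *Ccl3* had 0 and 75, at least 16.5-fold higher. In N tubules *Ccl7* was at 0.903, 0.816 and 0.498 CPM, compared with 0.71, 0.889 and 0.938 CPM in TAT. *Ccl2* was at 0.043, 0.136 and 0.591 CPM in N and 1.42, 1.42 and 5.47 CPM in TAT. The 10 complement calls became 0 without KO 79781, and the 5 chemokine calls became 2 without KO 79781, 3 without WT 79783, 3 without WT 79811, 3 without KO 79813, 2 without WT 79852 and 2 without KO 79853. The 3 antigen presentation calls became 5 without WT 79811. For chemokines in other settings, the number of higher genes was 3 with a fit of WT and TAT alone. For antigen presentation genes in other settings, the number of higher genes was 6 with total library size. No call was made for *C1ra*, *C3ar1*, *C5ar1* and *Cfp* without KO 79781 (adjusted p 0.0532 to 0.0789), *Ccl6* without KO 79781, WT 79783, WT 79852 or KO 79853 (adjusted p 0.0729 to 0.133), and *Ccl3* without KO 79781, WT 79783, WT 79811, KO 79813, WT 79852 or KO 79853 (adjusted p 0.0517 to 0.121). Other settings gave no call for *Cfp* with blocked limma-voom (adjusted p = 0.0527) and *Ccl6* with limma-voom or blocked limma-voom (adjusted p 0.0783 to 0.0874).

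Of 29 genes that the study names for TAT, 15 were higher and 3 lower (median 1.96). The study chose them on these libraries, so their counts are not independent evidence of a direction. Besides genes given above, *Lsp1*, a leukocyte gene, measured 0.53, 1.19 and 2.05 CPM in the WT animals and 14.9, 7.56 and 23.6 CPM in TAT (log2 fold change 3.52, SE 0.62, adjusted p = 0.00315). *Kazald1*, which encodes an insulin-like growth factor binding protein relative, measured 8.13, 3.7 and 4.25 CPM in the WT animals and 45.1, 31.5 and 33.9 CPM in TAT (log2 fold change 2.82, SE 0.50, adjusted p = 0.00327). Both were higher in each TAT animal than in any WT animal. *Icam2*, an endothelial adhesion gene, rose by 3.54. The 15 higher calls became 8 without KO 79781, and the 3 lower ones 1 without KO 79781. The test no longer passed for *Icam2* without KO 79781, WT 79811 or WT 79852 (adjusted p 0.0774 to 0.148).

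TAT were also compared with the N tubules of the same 3 KO animals. With the animal as a block, the edgeR quasi-likelihood test called 0 of 19293 genes higher (0%) and 0 lower (0%) in TAT compared to N at an adjusted p under 0.05, although 4517 genes had an unadjusted p under 0.05. The smallest adjusted p was 0.0661, a value tied over many genes. *Lgals3*, the galectin 3 gene, named after its value was seen, had the smallest unadjusted p. *Bok* and *Ccnd2* shared the tied value with genes such as *Tnfrsf12a*, *Myc*, *Ctsz* and *Hba-a2*. Without the block the counts were also 0 higher and 0 lower. The number of calls rested on the fit and on 1 animal: a fit of N and TAT alone gave 2367 higher and 2167 lower, and leaving out KO 79813 gave 1028 and 368, while leaving out KO 79781 or KO 79853 gave 0 in each direction. Of the lists, elongating and round spermatid genes had median log2 differences of -1.43 and -0.99 in TAT compared to N, granulosa cell genes 2.22, interstitial matrix genes 1.88 and Leydig cell genes 0.23. *Bok* had a log2 difference of 1.68 (SE 0.26) and *Ccnd2* of 1.76 (SE 0.30), and neither passed (adjusted p = 0.0661 and 0.0661).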

How the data were processed

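RNA from microdissected testis tissue was made into poly(A)-primed libraries with sample indices and UMIs. The authors aligned reads to GRCm38 with STAR 2.6.1d in the nf-core/rnaseq pipeline and deposited estimated counts per gene, not normalized, which the methods credit to Salmon and the submitters' processing notes to featureCounts (Subread 2.0.1). These notes also name FastQC 0.11.9, MultiQC 1.12 and Picard 2.23.9. The labels and methods do not state the annotation release, UMI deduplication or strand setting. UMI duplicates, if they were kept, would inflate the precision of low counts.

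Counts were summed over the pieces that came from a given region of an animal, sums were rounded to whole numbers, and low genes were removed with filterByExpr. All 12 summed libraries (WT, N, TAT and TM, 3 animals each) were fitted with edgeR 4.0.16 in R 4.3.3, with TMM scaling, glmQLFit and glmQLFTest, two-sided. Genes were called where the Benjamini-Hochberg adjusted p was below 0.05 and the change exceeded 1.5-fold. An adjusted p given without a named setting or comparison comes from this test of TAT against WT over all tested genes. The others come from the fit named beside them. This departs from the study's limma-voom with pieces as replicates, which was run as an alternative (limma 3.58.1), as was DESeq2 1.42.0. In TAT against N the animal was a block, because the labels name the same animals. Deviations of same-animal pairs correlated at a mean of 0.04 (0.02 to 0.06, 3 pairs), against -0.02 over 6 pairs of different animals. WT and KO animals are different animals, so WT and TAT were not paired. The main fit had no animal term, and its spread was also estimated from N, TAT and TM libraries of the same 3 KO animals. Those regions were treated as independent. Blocked limma-voom took the animal into account, and the fit of WT and TAT alone used 1 summed library per animal.

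Levels are CPM after TMM scaling, one value per animal. The precision of low genes is limited by the smallest library, at 6349355 counts, and intervals and floors (3 counts over a group) cover counting error only. Named genes were the 12 largest rises and 12 largest falls among calls whose groups did not overlap and whose mean reached 10 CPM, the 12 smallest p, up to 4 members per list with the smallest p plus members called against the list's majority, genes the study names for TAT, and *Inha*. Of the genes so chosen, 3 are not reported here. The 42 lists and these rules were chosen with earlier results of these data known. Lists can share members, such as *Hsd17b1* in the steroid synthesis and granulosa cell lists, so they are not separate evidence. Positions and biotypes come from GENCODE vM21. The statistics were tested on simulated data. All columns were mapped to samples.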

Additional observations from a re-analysis of the deposited data

Results flagged for a closer look

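Of 246 items looked at (204 genes and 42 gene lists), 10 genes and 0 lists had 1 of the 4 TAT libraries far from the other 3, by a gap to the nearest of them above Dixon's 95% critical share of the whole range. Chance gives about 1 in 20 for independent libraries, and 10 of 246 items is not above that rate. The 2 pieces of KO 79813 came from 1 animal, so the 4 libraries are not independent. Most of these libraries were KO 79853. Contractile and matrix genes were among those flagged as high in KO 79853. *Tagln* was at 206 CPM (30.1 to 52.6 in the others) and *Tpm2* at 153 CPM (17.8 to 38.3). *Col1a1* was at 559.9 CPM (90.2 to 157). In the same library *Ctla2a* was at 40.6 CPM (7.68 to 12.3), the chemokine gene *Ccl2* at 5.69 CPM (1.27 to 1.56) and *Cyp11b1* at 1.41 CPM (0 in the others). Lower there were *Klf4*, at 68.7 CPM (104 to 109), and *Klk1b21*, at 0.0542 CPM (1.7 to 2.03), one of a family of near-identical kallikrein genes whose reads the counting could split. The piece from testis 2 of KO 79813 was low for the laminin gene *Lamb2*, at 35.9 CPM (47.4 to 49.5), and for the complement receptor gene *C5ar1*, at 1.01 CPM (3.48 to 3.85).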

How the results depend on the processing

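The 2850 higher genes stayed within 1.5 times under every alternative except leaving out single animals, which gave 720 (without KO 79781) to 3073 (without KO 79813). The 912 lower genes became 2645 in a fit of WT and TAT alone, 2222 with limma-voom on 17 libraries, 2436 with the animal as a random block in limma-voom, 2726 with DESeq2, 1792 with RLE size factors and 582 with total library size, and 58 (without KO 79781) to 2210 (without KO 79813) with an animal left out. The cause was not tested. For TAT against N, the fit of N and TAT alone gave 2367 higher and 2167 lower genes, and leaving out an animal gave 0 to 1028 higher and 0 to 368 lower, both highest without KO 79813. In that comparison the fit with no replicate block called 0 higher and 0 lower genes, as with the animal block, with 4130 genes at an unadjusted p under 0.05. The sign of the median of each of the 42 lists was the same with TMM, RLE and total library size. Of 207 genes chosen by the naming rule 177 were called, 97 of them under every alternative, and 33 lost the call without KO 79781 only. Left out, KO 79781 removed 77 of the 177 calls, WT 79852 removed 33, WT 79783 31, KO 79853 24, WT 79811 21 and KO 79813 4. No value of these genes reversed.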
